A study of Mus musculus with 14 samples.

Results

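The genes described here are 6 genes of the MHC class I peptide loading pathway, B2m, Tap1, Tap2, Tapbp, Erap1 and Nlrc5. They were chosen by name and not by a filter on their values, but with earlier results of these data known. They come from 19155 genes measured on 14 Affymetrix Mouse Gene ST 1.0 arrays. All 6 were measured, 5 of them by 1 usable probe set and Nlrc5 by 2, of which the one with the higher mean over all arrays was used. Every array carried amplified RNA of 20000 cells, sorted from the bone marrow of wild-type C57BL/6 mice with no other allele or agent. There were 3 arrays of old MPP4, 5 of young MPP4, 3 of old MPP3 and 3 of young MPP3, where old mice were 24 months of age and young mice 8 to 10 weeks. MPP3 are myeloid-biased multipotent progenitors, gated as lineage-negative, c-Kit-positive, Sca-1-positive, Flk2-negative, CD48-positive and CD150-negative cells, and MPP4 are lymphoid-biased ones that carry Flk2. This gate is the one in the labels, whereas the methods of the study list CD150 as positive on MPP3, so the CD150 gate is unsettled here. The labels call the samples of a group biological replicates. They do not say whether mice were pooled, and per the labels the young data had been part of an older series too, so age and the experiment that made an array cannot be told apart.

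MHC class I molecules show peptides from inside the cell to cytotoxic T cells, and nearly all nucleated cells carry them. A heavy chain pairs with the invariant light chain beta-2 microglobulin (B2m) in the endoplasmic reticulum. Peptides cut by the proteasome are pumped in by a transporter made of the subunits Tap1 and Tap2, are trimmed by the aminopeptidase Erap1, and are loaded with the help of tapasin (Tapbp), which bridges the transporter and the empty class I molecule. Nlrc5 is a transcriptional co-activator of class I genes and of several genes of the loading machinery, and interferons raise the whole set in many cell types.

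The genes lie on 4 mouse chromosomes in GRCm38.p6. Tap1 and Tap2 lie in the MHC on chromosome 17, in the order Psmb9, Tap1, Psmb8 and Tap2, where Psmb9 and Psmb8 encode immunoproteasome subunits. Tapbp is on the same chromosome, B2m on chromosome 2, Erap1 on chromosome 13 and Nlrc5 on chromosome 8. RefSeq promoter windows were matched for 4 of the 6 genes. They are shown because interferon response elements and the promoter boxes of class I genes are the textbook link between these genes. Searched on both strands were the interferon-stimulated response element core GAAANNGAAA, the CCAAT box (CCAAT), the X2-type element TGACG and the gamma-activated site TTCNNNGAA. The stretches below end at the base before the RefSeq start, except that of Erap1, which spans the start given in the promoter table (its gene model begins further upstream). Capitals mark motif letters, and all 4 run along the plus strand.
B2m, chr2:122147437-122147686: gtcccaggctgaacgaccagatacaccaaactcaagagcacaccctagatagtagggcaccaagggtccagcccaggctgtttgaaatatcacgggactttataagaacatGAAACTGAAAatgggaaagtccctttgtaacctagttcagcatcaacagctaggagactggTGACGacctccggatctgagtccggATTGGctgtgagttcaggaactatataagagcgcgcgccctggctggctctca
Tap1, chr17:34187331-34187555: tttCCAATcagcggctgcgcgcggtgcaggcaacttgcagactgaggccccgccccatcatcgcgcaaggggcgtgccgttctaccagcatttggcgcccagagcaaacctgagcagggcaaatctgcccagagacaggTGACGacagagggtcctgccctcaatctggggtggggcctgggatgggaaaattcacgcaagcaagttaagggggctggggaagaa
Tapbp, chr17:33919228-33919477: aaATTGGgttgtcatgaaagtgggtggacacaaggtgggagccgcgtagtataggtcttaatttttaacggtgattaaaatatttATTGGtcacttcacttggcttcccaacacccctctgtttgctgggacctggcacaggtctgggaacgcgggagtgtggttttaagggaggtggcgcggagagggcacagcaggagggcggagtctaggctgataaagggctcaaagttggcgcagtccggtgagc
Erap1, chr13:74639839-74639868: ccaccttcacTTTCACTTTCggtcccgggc

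The stretch of Tap1 is short because Psmb9 starts 225 bases away on the other strand, so both genes share it. B2m held the interferon element 139 to 130 bases before its start, and Erap1 held it on the minus strand across its start. That core was in 3.44% of 32851 RefSeq windows of 300 bases (250 before and 50 from the start). A CCAAT box was in B2m, Tap1 and Tapbp and in 37.4% of all windows, and TGACG was in B2m and Tap1 and in 20.8% of all windows. None of the 4 held TTCNNNGAA, found in 8.3% of all windows. These letters were searched as text, and no binding was measured.

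The deposited values are ranks. Each one is the negative natural log of the fraction of the array's ranked probe sets lying no lower than the gene, so a mean of 4.22 for B2m in old MPP3 means that 1.47% of the ranked probe sets were as bright or brighter. Differences are therefore in units of this normalized value and not folds, and levels of different genes were not set against each other. Array medians lay between 0.662 and 0.675. By their 7371 dimmest probe sets the arrays fell into 2 clusters with no counterpart in the labels, called array sets here. Array set 2 consisted of young MPP4 replicates 3, 4 and 5 with young MPP3 replicates 2 and 3. Array set 1 had 9 arrays, among them every old one and the 3 remaining young ones. Xist signal (a value above 1) was seen on 4 of the 8 young arrays and on none of the 6 old arrays. Flt3, which encodes Flk2, averaged 3.40 in old MPP4, 3.12 in young MPP4, 1.79 in old MPP3 and 2.13 in young MPP3, and it is part of the gate. Slamf1, which encodes CD150, had 0.251, 0.126 and 0.192 in old MPP3 and 0.141, 0.168 and 0.111 in young MPP3. On the MPP4 arrays it lay between 0.0864 and 0.160. RNA levels do not settle which surface gate was used. In such sorted bulk samples, fewer cells of a type and less RNA per cell cannot be told apart.

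Tap1, a subunit of the peptide transporter, had values of 1.19, 1.11 and 1.20 in old MPP4 and of 1.03, 1.30, 1.30, 1.12 and 1.17 in young MPP4. It had 1.01, 0.858 and 0.807 in old MPP3, against 1.00, 1.13 and 1.10 in young MPP3. Old MPP3 held the lowest levels of this gene, below every array of either MPP4 group, and overlapped young MPP3 only because old replicate 1 lay just above young replicate 1. The difference between ages in MPP3 was -0.185 ± 0.0665 (SE, 95% confidence interval -0.354 to -0.0174), and by limma it did not pass after adjustment over all genes (adjusted p = 0.576). In old mice Tap1 averaged 1.17 ± 0.0521 in MPP4 and 0.892 ± 0.106 in MPP3 (SD, n = 3 each), a difference of 0.275 ± 0.0618 (SE, interval 0.119 to 0.431, adjusted p = 0.335) with no overlap of the groups. In young mice the MPP4 mean was higher by 0.106 with overlapping groups (interval -0.0574 to 0.270, adjusted p = 0.656). The ordering of the group means, lowest first, was old MPP3, young MPP3, old MPP4 and young MPP4, and each pair of neighbours in it overlapped.

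Tap2, the partner of Tap1 in the transporter, did not share this ordering. Its values were 1.69, 1.67 and 1.65 in old MPP4 and 2.07, 1.75, 1.41, 1.44 and 1.40 in young MPP4, and 1.78, 1.62 and 1.47 in old MPP3, against 1.87, 1.40 and 1.63 in young MPP3. The SD of Tap2 was 0.0195 in old MPP4 and 0.292 in young MPP4, and all 4 groups overlapped. The age difference was 0.0571 in MPP4 (interval -0.313 to 0.427, adjusted p = 0.936) and -0.00867 in MPP3 (interval -0.373 to 0.356, adjusted p = 0.994). The group means were lowest in young MPP4, then old MPP3, young MPP3 and old MPP4. Tap1 and Tap2 had a Pearson r of -0.150 over the 14 arrays.

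Tapbp, which encodes tapasin, had 1.80, 1.51 and 1.56 in old MPP4, against 1.92, 1.53, 1.42, 1.28 and 1.26 in young MPP4. In MPP3 it had 1.69, 1.51 and 1.61 in old mice and 1.79, 1.52 and 1.43 in young mice. The lowest levels were on young MPP4 replicates 3, 4 and 5, the groups overlapped in every comparison, and the age difference was 0.141 in MPP4 (interval -0.225 to 0.506, adjusted p = 0.804) and 0.0226 in MPP3 (interval -0.247 to 0.292, adjusted p = 0.974). Young MPP4 had the lowest mean, followed by young MPP3, old MPP3 and old MPP4, with overlap between neighbours.

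Erap1, the aminopeptidase that trims peptides in the endoplasmic reticulum, had 2.14, 2.08 and 2.16 in old MPP4, against 1.67, 2.13, 1.92, 2.09 and 2.07 in young MPP4. Old MPP3 had 1.93, 1.78 and 1.96 and young MPP3 1.86, 2.05 and 2.03. Old MPP4 held the tightest and highest group, above every MPP3 array of either age, and young MPP4 replicate 1 was the lowest array of all. In old mice the means were 2.12 ± 0.0428 in MPP4 and 1.89 ± 0.0942 in MPP3 (SD, n = 3 each), which differed by 0.233 ± 0.0549 (SE, interval 0.0940 to 0.372, adjusted p = 0.343) without overlap. In young mice the same difference was -0.00220 (interval -0.263 to 0.258, adjusted p = 0.999). The age differences were 0.146 in MPP4 (interval -0.0987 to 0.391, adjusted p = 0.677) and -0.0891 in MPP3 (interval -0.278 to 0.0999, adjusted p = 0.785). From the lowest mean the groups ran old MPP3, young MPP4, young MPP3 and old MPP4, and of these neighbours only young MPP3 and old MPP4 did not overlap.

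B2m, the light chain of every class I molecule, had 4.24, 4.48 and 4.44 in old MPP4, against 4.21, 4.18, 4.33, 4.28 and 4.45 in young MPP4. In MPP3 it had 4.18, 3.95 and 4.53 in old mice and 4.23, 4.81 and 4.74 in young mice. The old and young groups overlapped in both populations, and young MPP3 replicates 2 and 3 stood above all other arrays. The age difference in MPP3 was -0.368 ± 0.216 (SE, interval -0.915 to 0.178, adjusted p = 0.694), and in MPP4 it was 0.0963 (interval -0.0859 to 0.279, adjusted p = 0.711). With single arrays left out the MPP3 age difference lay between -0.548 (without young MPP3 replicate 1) and -0.233 (without old MPP3 replicate 2). In young mice MPP4 averaged 4.29 ± 0.109 (SD, n = 5) and MPP3 4.59 ± 0.314 (SD, n = 3), a difference of -0.300 ± 0.134 (SE, interval -0.615 to 0.0142, adjusted p = 0.482). This one lay between -0.480 without young MPP3 replicate 1 and -0.193 without young MPP3 replicate 2. Within array set 2 this difference was -0.415 (3 arrays of MPP4 and 2 of MPP3, limma adjusted p = 0.0334). Far more genes passed in that fit than over all arrays, so the pass was not particular to B2m. Within set 1 the difference was -0.0385 (2 arrays of MPP4 and 1 of MPP3). The MPP3 age difference was -0.00787 within set 1, where young MPP3 had 1 array. Old MPP3 had the lowest mean, then young MPP4, old MPP4 and young MPP3, with overlap between neighbours.

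Nlrc5, the class I co-activator, had 1.35, 1.08 and 1.35 in old MPP4, against 1.34, 1.20, 1.19, 1.24 and 1.16 in young MPP4. In MPP3 it had 1.23, 0.870 and 1.53 in old mice and 1.46, 1.40 and 1.36 in young mice. Old MPP3 held both the lowest and the highest array of the series, with replicate 2 lowest, and young MPP3 lay above both MPP4 groups. In young mice MPP4 averaged 1.23 ± 0.0680 (SD, n = 5) and MPP3 1.405 ± 0.0501 (SD, n = 3), a difference of -0.178 ± 0.0443 (SE, interval -0.282 to -0.0742, adjusted p = 0.224) without overlap. The difference was -0.187 within array set 1 (2 arrays of MPP4 and 1 of MPP3). It was -0.180 within set 2 (3 arrays of MPP4 and 2 of MPP3, limma adjusted p = 0.0466), where far more genes passed than over all arrays. From the lowest mean the groups ran old MPP3, young MPP4, old MPP4 and young MPP3, and only the last pair of neighbours did not overlap. The age difference was -0.193 in MPP3 (interval -0.621 to 0.235, adjusted p = 0.791) and 0.0332 in MPP4 (interval -0.133 to 0.200, adjusted p = 0.914). In MPP3 it was -0.0225 without old MPP3 replicate 2 and -0.353 without old MPP3 replicate 3, the ends of the range with single arrays left out. The probe set of Nlrc5 that was not used averaged 0.905 ± 0.143 in young MPP4 and 0.937 ± 0.0854 in young MPP3 (SD). In old mice it averaged 0.913 ± 0.0733 in MPP4 and 0.942 ± 0.0265 in MPP3 (SD), so in MPP3 its mean was not lower with age. Its r with the one used was 0.284 over 14 arrays, so the 2 probe sets did not give the same picture.

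**Figure D1:**
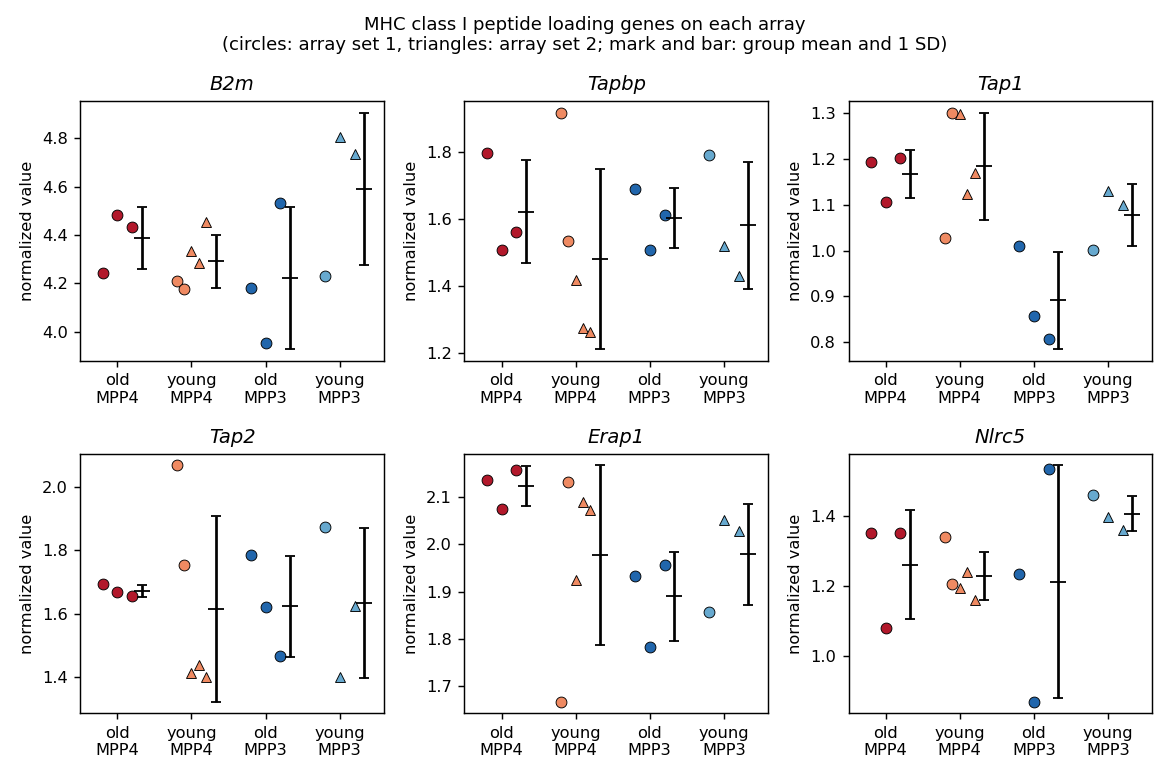
Normalized value (a rank score with no unit) of each of the 6 genes on each of the 14 arrays, by group, with the mean and 1 SD beside the points (n = 3, 5, 3 and 3). Tap1 was lowest in old MPP3, at 0.807 to 1.01, and young MPP4 arrays of set 2 (triangles) had the lowest Tapbp values.

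None of the 6 genes passed an adjusted p of 0.05 in the unweighted limma fit of any comparison over all of its arrays. With array weights B2m and Nlrc5 passed between the young populations, and B2m in the difference of the age differences. A p above the threshold does not make the groups equal. In old against young MPP3, 5 of the 6 had the lower mean in old mice, with a median difference of -0.137, beside a median of 0.000183 over all genes. One of the 6, Tap1, had an unadjusted p under 0.05, beside 8.19% of all genes, and 0 of the 6 had groups that did not overlap, beside 14.2% of all genes. Adjusted calls were 0 of 19155 genes (0%). Without old MPP3 replicate 2 the median over the 6 genes was -0.0288, and without young MPP3 replicate 1 the difference of Tap2 was 0.111.

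In old against young MPP4, 5 of the 6 had the higher mean in old mice, with a median of 0.0767 and -0.000171 over all genes. None of the 6 had an unadjusted p under 0.05, beside 9.77% of all genes, none was without overlap, beside 7.29%, and limma called 0% of all genes. Over the arrays of set 1 alone, 3 of the 6 were higher and 3 lower. In the test of whether the age difference differed between MPP4 and MPP3, all 6 coefficients were positive, from 0.0657 for Tap2 to 0.464 for B2m (interval -0.0148 to 0.944, adjusted p = 0.821). None of the 6 had an unadjusted p under 0.05, beside 6.26% of all genes, and limma called 0% of all genes after adjustment.

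Between the populations in young mice, 5 of the 6 had the lower mean in MPP4, with a median of -0.0585. One of the 6, Nlrc5, had an unadjusted p under 0.05, beside 11% of all genes, and the same gene was without overlap, beside 7.47%, while 0.131% of all genes passed after adjustment. In old mice all 6 had the higher mean in MPP4, with a median of 0.106. Tap1 and Erap1 were the 2 of 6 with an unadjusted p under 0.05 (9.83% of all genes) and without overlap (16.6% of all genes), and limma called 0% of all genes after adjustment. Without old MPP3 replicate 2, 4 of the 6 were higher in old MPP4, with Tapbp at -0.0282 and Nlrc5 at -0.122. Each group enters 2 of these comparisons, so their results share arrays and are not separate evidence.

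**Figure D2:**
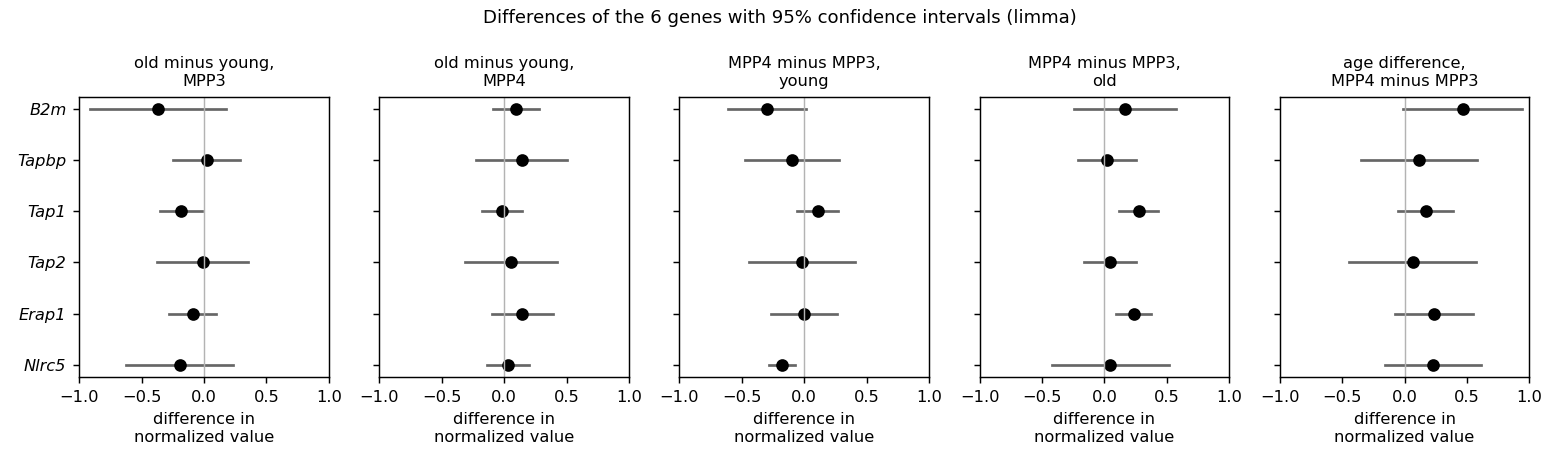
Difference in normalized value (point) and 95% confidence interval from limma (bar) for the 6 genes in the 4 comparisons and for the difference of the age differences. The intervals that leave out 0 are those of Tap1 in old against young MPP3, Nlrc5 in MPP4 against MPP3 of young mice, and Tap1 and Erap1 in MPP4 against MPP3 of old mice.

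Tap2 and Tapbp varied together from array to array. Their Pearson r was 0.809 over 14 arrays and 0.832 after the group means were removed, points that share array, amplification and ranking. Replicate 1 was the highest array of its group for both genes in all 4 groups. On the young arrays, Tap2 had 1.75 to 2.07 in set 1 and 1.40 to 1.63 in set 2, and Tapbp had 1.53 to 1.92 in set 1 and 1.26 to 1.52 in set 2, so for both genes the sets did not overlap. The old arrays, all of set 1, had 1.47 to 1.78 for Tap2 and 1.51 to 1.80 for Tapbp. Within set 1 the age difference in MPP4 was -0.238 for Tap2 and -0.103 for Tapbp, the opposite sign to that over all arrays, and in MPP3 it was -0.248 and -0.188, with 1 young array. Both genes had a negative r with Erap1, -0.480 for Tap2 and -0.472 for Tapbp.

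**Figure D3:**
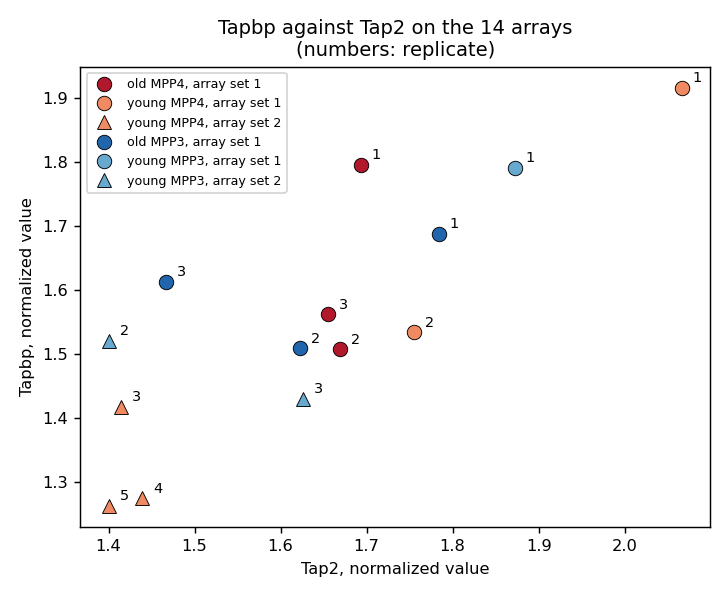
Normalized value of Tapbp against that of Tap2 on the 14 arrays, coloured by group, with the array set as the marker shape and the replicate number beside each point. Young arrays of set 2 lay at the low end of both axes, at or below 1.63 for Tap2 and 1.52 for Tapbp.

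The other genes of the pathway were read from lists. None of the genes in them passed limma's adjusted threshold in the unweighted fit of any comparison over all of its arrays. Of 20 class I heavy chain genes 9 were measured, and the classical genes H2-K1 and H2-D1 were not analysed here. These genes are close copies of each other, so probes may read several of them. In old against young MPP3, 6 of the 9 were higher and 3 lower, with a median of 0.0135, and in MPP4 4 were higher and 5 lower, with a median of -0.00882. H2-T24 averaged 0.822 in old MPP4 and 0.961 in young MPP4 (difference -0.140, adjusted p = 0.426, groups apart). H2-M3, which presents formylated peptides, averaged 1.48 in young MPP4 and 1.22 in young MPP3 (difference 0.268, adjusted p = 0.344), and H2-T10 averaged 1.36 in old MPP4 and 1.06 in old MPP3 (difference 0.301, adjusted p = 0.389). On the young arrays of set 1, H2-M3 had 1.38 and 1.34 in MPP4 and 1.41 in MPP3. On those of set 2 it had 1.54, 1.58 and 1.58 in MPP4 and 1.13 and 1.11 in MPP3. Of the other partners of B2m, Mr1, which presents microbial vitamin metabolites, averaged 0.826 in old MPP4 and 0.661 in old MPP3 (difference 0.165, adjusted p = 0.491). Cd1d1, which presents lipids, averaged 0.849 in old MPP4 and 0.669 in young MPP4 (difference 0.181, adjusted p = 0.558).

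All 5 genes of the immunoproteasome and its PA28 activator were measured, and 4 of them were lower in old than in young mice in each population, with medians of -0.0678 in MPP3 and -0.0112 in MPP4. Within array set 1, 5 of the 5 were lower in old MPP4 (median -0.124). In MPP3, with 1 young array in that set, 3 were lower and 2 higher (median -0.190). Psmb9, the catalytic subunit whose gene shares its promoter stretch with Tap1, averaged 3.49 in old MPP4 and 3.74 in young MPP4, a difference of -0.258 (interval -0.480 to -0.0360, adjusted p = 0.469) with groups apart, while Tap1 differed by -0.0169 there. In MPP3 Psmb9 averaged 3.41 in old mice and 3.53 in young mice (difference -0.123, adjusted p = 0.693). Psmb8, which lies between Tap1 and Tap2, differed by -0.0112 between ages in MPP4 and by -0.0556 in MPP3. In young MPP4 it had 3.08 and 2.96 in array set 1 and 2.84, 2.71 and 2.72 in set 2, against 2.84 to 2.87 in old MPP4. In young MPP3 it had 3.03 in set 1 and 2.74 and 2.81 in set 2, against 2.75 to 2.85 in old MPP3. Of the 5 cytosolic peptidases measured, which cut peptides before transport, Blmh averaged 2.65 in old MPP4 and 2.35 in young MPP4 (difference 0.303, adjusted p = 0.323, groups apart), and the other 4 differed by -0.0573 to 0.0330.

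Most chaperones of the endoplasmic reticulum had the higher mean in old mice. Of 6 measured, 5 had it in old MPP3 (median 0.147) and 6 in old MPP4 (median 0.113). Pdia3, the thiol oxidoreductase that works with tapasin in the loading complex, averaged 3.22 in old MPP3 and 2.93 in young MPP3 (difference 0.293, adjusted p = 0.488, groups apart). Canx, calnexin, averaged 3.83 in old MPP4 and 3.65 in young MPP4 (difference 0.177, adjusted p = 0.386, groups apart), and 3.98 in old MPP3 and 3.67 in young MPP3 (difference 0.313, adjusted p = 0.576). In young MPP3 Canx had 3.90 in array set 1 and 3.53 and 3.58 in set 2, against 3.89 to 4.06 in old MPP3. Calr, calreticulin, averaged 3.13 in young MPP4 and 3.46 in young MPP3 (difference -0.334, adjusted p = 0.177), and 3.29 in old MPP4 and 3.57 in old MPP3 (difference -0.290, adjusted p = 0.484), with the populations apart at both ages. In young MPP4 Calr had 3.26 and 3.26 in array set 1 and 3.07, 3.06 and 2.98 in set 2. In young MPP3 it had 3.42 in set 1 and 3.52 and 3.44 in set 2. These chaperones serve many proteins besides class I. The median in MPP3 was 0.0580 without old MPP3 replicate 2. Within array set 1, 4 of the 6 were higher and 2 lower in old MPP4 (median 0.0858). In MPP3, with 1 young array in that set, 6 of the 6 were higher in old mice (median 0.107).

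Of 11 transcription regulators of class I genes measured, 8 were lower in old MPP3 (median -0.0527) and 7 higher in old MPP4 (median 0.0325). Irf2, a factor that binds interferon response elements, averaged 2.55 in old MPP4 and 2.00 in old MPP3 (difference 0.558, interval 0.183 to 0.933, adjusted p = 0.373, groups apart). In young mice it averaged 2.46 in MPP4 and 2.28 in MPP3 (difference 0.178, adjusted p = 0.583). Irf1, an interferon-induced activator of class I genes, differed by 0.0448 between ages in MPP3, and Rfx5, a subunit of the complex that binds class I promoters, by -0.0943.

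Of the 9 interferon receptor and signalling genes measured, Ifnar2, a chain of the type I receptor, averaged 2.78 in old MPP4 and 2.52 in old MPP3 (difference 0.255, adjusted p = 0.203, groups apart). It also averaged 2.52 in old MPP3 and 2.66 in young MPP3 (difference -0.139, adjusted p = 0.471, groups apart). Irf9, the DNA-binding subunit of the type I interferon factor, was lower with age in both populations without overlap, at 1.24 in old MPP4 and 1.46 in young MPP4 (difference -0.223, adjusted p = 0.441) and at 0.811 in old MPP3 and 1.17 in young MPP3 (difference -0.360, adjusted p = 0.576). Ifngr1, the ligand-binding chain of the interferon gamma receptor, was higher with age without overlap, at 2.55 in old MPP4 and 2.23 in young MPP4 (difference 0.320, adjusted p = 0.298) and at 2.93 in old MPP3 and 2.27 in young MPP3 (difference 0.657, adjusted p = 0.576).

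Most interferon-induced genes, like Tap1, had a lower mean in old than in young MPP3. Of 26 measured, 24 had the lower mean in old MPP3 (median -0.132), 6 of them with an unadjusted p under 0.05 (beside 8.19% of all genes in either direction) and 7 without overlap (beside 14.2%). In MPP4 19 were lower in old mice (median -0.0431). In old mice 20 of 26 were higher in MPP4 than in MPP3 (median 0.166), 9 without overlap, beside 16.6% of all genes in either direction. Xaf1 averaged 0.813 in old MPP3 and 1.22 in young MPP3 (difference -0.405, adjusted p = 0.511). Iigp1, an interferon-induced GTPase, averaged 1.35 in old MPP4 and 0.605 in old MPP3 (difference 0.741, adjusted p = 0.321), and Parp9 averaged 1.18 in old MPP4 and 0.741 in old MPP3 (difference 0.439, adjusted p = 0.222). The mean over the 26 genes was 1.08 to 1.22 on old MPP4 arrays, 1.17 to 1.21 on young MPP4 arrays, 0.874 to 1.05 on old MPP3 arrays and 1.13 to 1.18 on young MPP3 arrays, so old MPP3 lay below all other arrays. Without old MPP3 replicate 2, 21 of 26 were lower with age in MPP3 (median -0.0958) and 17 of 26 were higher in old MPP4 than in old MPP3 (median 0.0944). Within array set 1, where young MPP3 had 1 array, 20 of 26 were lower in old MPP3 (median -0.0952).

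**Figure D4:**
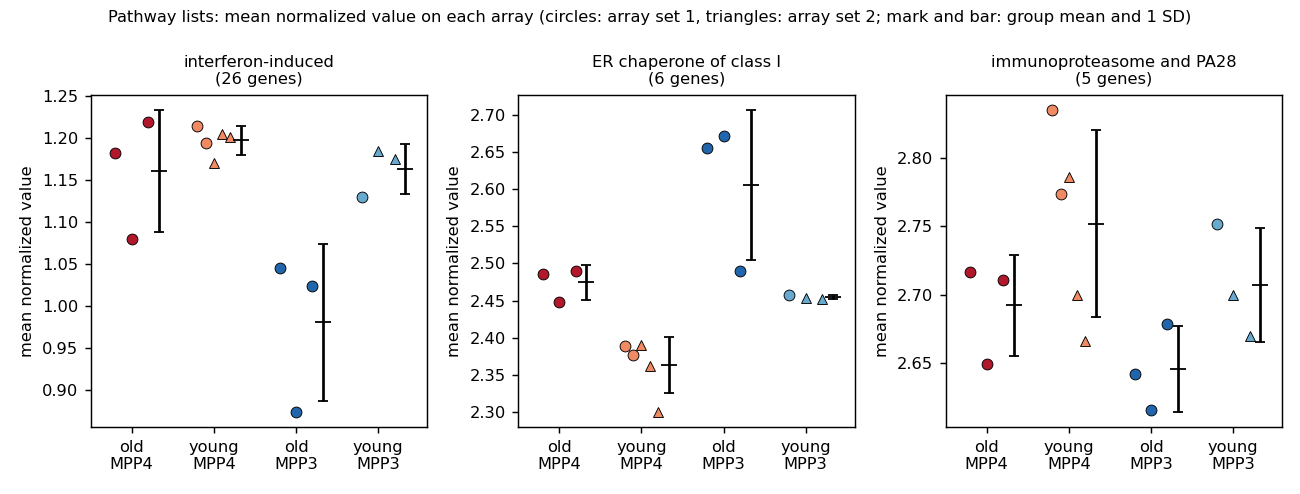
Mean normalized value on each array of the interferon-induced genes (26 genes), the endoplasmic reticulum chaperones (6 genes) and the immunoproteasome with PA28 (5 genes), with the mean and 1 SD of each group. The 3 old MPP3 arrays had the lowest interferon-induced means (0.874 to 1.05), with replicate 2 lowest.

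Of the 9 markers of mature neutrophils, all measured, 7 had the higher and 2 the lower mean in old MPP3 than in young MPP3, with differences of -0.0431 to 1.34 (median 0.282, or 0.0539 without old MPP3 replicate 2). None of them passed limma's adjusted threshold. The mean over the 9 markers was 0.353 to 0.511 on old MPP4 arrays, 0.321 to 0.481 on young MPP4 arrays, 0.855 to 1.30 on old MPP3 arrays and 0.562 to 0.790 on young MPP3 arrays. The highest array was old MPP3 replicate 2, which also had the lowest B2m, Nlrc5 and interferon-induced means of the series. On the same array S100a8 had 3.63, against 2.31 and 2.38 on the other old MPP3 arrays. S100a9, Camp, Cxcr2, Ltf, Mmp9 and Retnlg were highest there too among the old MPP3 arrays. Ngp was not, with 1.34 against 1.49 on replicate 3, and Mmp8 was lowest there, at 0.0722. Ltf, Mmp9, Retnlg and Mmp8 lay between 0.0722 and 0.280 on that array. The means of 9 of 10 B cell markers were 0.654 to 0.819 in old MPP4, 0.551 to 0.984 in young MPP4, 0.619 to 1.22 in old MPP3 and 0.623 to 1.14 in young MPP3. All 9 were lower in young MPP4 than in young MPP3 (median -0.325). Of these 3 had an unadjusted p under 0.05 by limma, beside 11% of all genes. Old MPP3 replicate 3 had 1.22, against 0.638 and 0.619 on the others, and the highest B2m and Nlrc5 of its group. Young MPP4 replicate 2 had 0.984, the highest of its group, and the lowest B2m there. T and NK cell markers (8 of 10) averaged 0.542 to 0.599 in old MPP4, 0.502 to 0.603 in young MPP4, 0.670 to 0.722 in old MPP3 and 0.573 to 0.664 in young MPP3. Of these 8 genes 4 were higher and 4 lower in old than in young MPP3, with a median difference of 0.0545, and Nkg7 differed most, by 0.521. Macrophage and dendritic cell markers (10 of 10) averaged 0.520 to 0.598 in old MPP3 and 0.504 to 0.509 in young MPP3, without overlap, and lay between 0.450 and 0.544 in MPP4. Stromal and endothelial markers (8 of 8) lay between 0.593 and 0.701 over all arrays. The part of any of these in the lower Tap1, B2m and interferon-induced means of old MPP3 was not tested. Nor was the part of the B cell markers in the B2m and Nlrc5 differences between the young populations. On a rank scale no value marks a gene as absent.

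**Figure D5:**
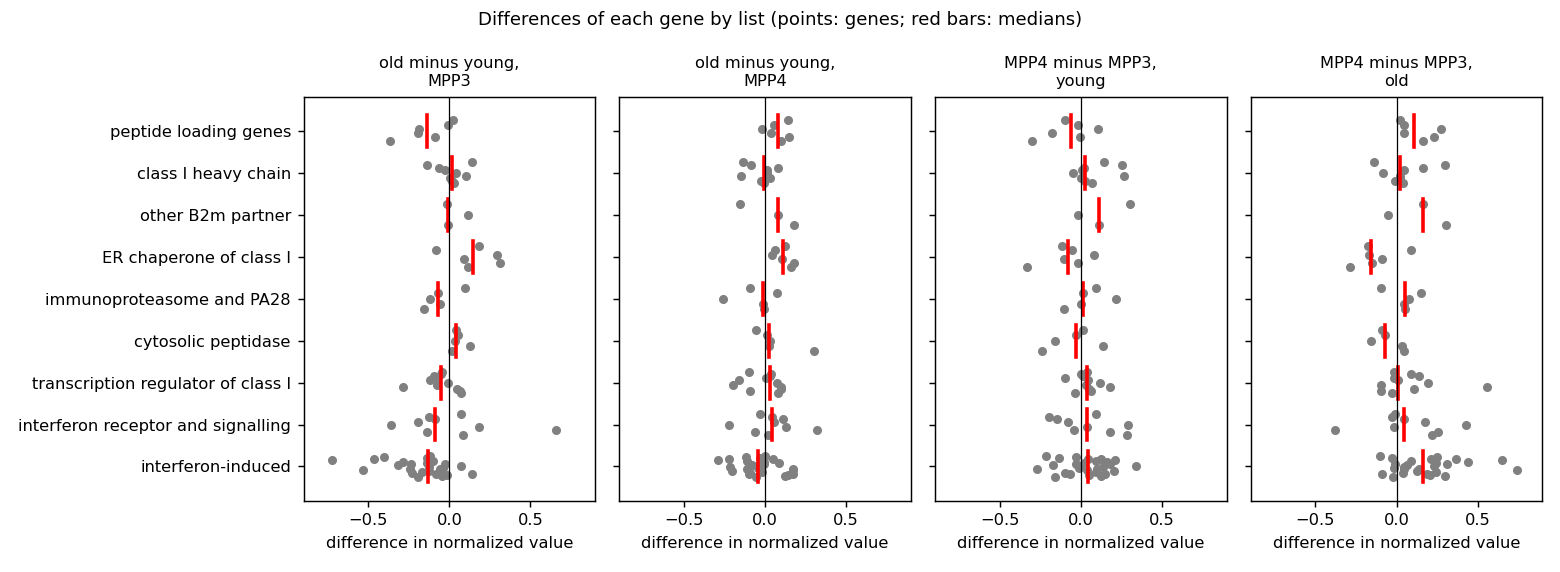
Difference in normalized value of every measured gene (points) of the 6 loading genes and of 8 pathway lists in the 4 comparisons, with the median of each list as a red bar. The interferon-induced median was -0.132 in old minus young MPP3 and 0.166 in MPP4 minus MPP3 of old mice, and the chaperone medians were 0.147 and -0.161 there.

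For each of the 6 genes, the genes whose values over the 14 arrays were most like its own differed. B2m was closest to Cd274 (r = 0.904), which encodes the inhibitory ligand PD-L1, then S100a4 (0.884) and Olfr284 (0.882). Tap1 was closest to Ttc37 (0.930), H2-Oa (0.907), a modulator of class II loading, and Vwa5a (0.904). Tap2 was closest to Polr2a (0.946), the largest subunit of RNA polymerase II, Arid1a (0.937), a chromatin remodelling subunit, and Frat2 (0.925), and Tapbp to Lrrc36 (0.924), Trim65 (0.924) and Vps51 (0.919). Erap1 was closest to Zfp39 (0.952), Pip4k2a (0.913) and Zfp599 (0.903), and Nlrc5 to Glis2 (0.898) and to the interferon-induced Isg20 (0.890) and Bst2 (0.887). These are the highest correlations among genes without a Gm, Rik, LOC or ENSMUS name, over 14 arrays that share 4 groups and 2 array sets. They are a description only.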

How the data were processed

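RNA of sorted cells was amplified with a linear kit and hybridized by the authors. The deposited values are a score: per the study's methods, the authors ran RMA and then mapped each array onto a standard exponential distribution, which keeps rank and removes intensity, so a real shift in the whole distribution would be lost. The values were used as deposited. Of 22115 probe sets, 744 with several gene symbols and 2135 not listed in the platform annotation were left out. Where a gene had several probe sets (76 genes), that with the highest mean over all arrays stood for it. Depth does not apply to arrays, and their number limits the precision.

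Groups were compared with limma 3.58.1 in R 4.3.3 (lmFit and eBayes), two-sided, with Benjamini-Hochberg adjustment over 19155 genes and a threshold of 0.05. The fits were tested on simulated data. The Significance Analysis of Microarrays named in the study's methods was not run, because it needs permuted splits of the arrays. The 2 array sets came from clustering the 7371 dimmest probe sets. All 6 members were named, with up to 2 genes of each pathway list by moderated statistic in each comparison and the 3 genes most correlated with each member. Genes with Gm, Rik, LOC or ENSMUS names were left out of these correlations. S100a8 was chosen after its values were seen. The members and lists were chosen with earlier results of these data known. The alternatives were a replicate block, 1 fit of all groups, array weights, a robust variance trend, normal scores, another scaling, a filter on dim genes, the mean of probe sets, array sets, arrays without Xist signal and leaving out each array, and list counts without old MPP3 replicate 2 or within array set 1 were added after seeing the data. Promoters came from RefSeq (GRCm38.p6), matched by symbol. Figures were drawn with Python 3.11.15 and matplotlib 3.10.9.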

Additional observations from a re-analysis of the deposited data

Results flagged for a closer look

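In young MPP4 (n = 5), 44 genes were looked at for an array far from the others of its group, the 6 loading genes and list genes that had been picked by their moderated statistic in the comparisons, some of which include these arrays. There were 3 such genes, which is close to the chance rate of about 1 in 20 groups, and that rate is only a rough guide for genes picked this way. Psmb9 had 4.02 on replicate 3, against 3.65 to 3.70 on the other young MPP4 arrays, a gap of 0.859 of the range. Irf9 had 1.67 on the same array, against 1.38 to 1.44 on the others, a gap of 0.791 of the range. Ifnar2 had 2.67 on replicate 2, against 2.87 to 2.90 on the others, a gap of 0.861 of the range. None of the 6 loading genes stood out in this way.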

How the results depend on the processing

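Of 564 values of the 6 genes under alternatives, 504 kept their direction and their side of the threshold, 55 changed sign and 5 passed the threshold, and the cause was not tested. The 5 were B2m (-0.408, adjusted p = 0.0281) and Nlrc5 (-0.167, adjusted p = 0.0227) in MPP4 against MPP3 of young mice with array weights, both again within array set 2 (-0.415 and -0.180, adjusted p = 0.0334 and 0.0466), and B2m in the difference of the age differences with array weights (0.644, adjusted p = 0.0345). Over the alternatives of each result, adjusted p ran from 0.0281 to 0.913 for B2m and from 0.0227 to 0.693 for Nlrc5 between the young populations, and from 0.0345 to 1.00 for B2m in the difference of the age differences. In old against young MPP3, Tap2 was 0.179 with array weights and 0.111 on arrays without Xist signal, and Tapbp was -0.188 and Erap1 0.0338 with the array set as a term or within array set 1. In old against young MPP4, Tap1 was 0.00291, Tap2 -0.238, Tapbp -0.103 and Nlrc5 -0.0110 with the array set as a term or within array set 1. Between the young populations, Erap1 was 0.00608 with array weights, 0.00546 with the other scaling, 0.00775 with the array set as a term and 0.0430 within array set 1, Tap2 was 0.0381 within array set 1, and on arrays without Xist signal Tap2 was 0.0717 and Tapbp 0.000652. Between the old populations, array weights gave -0.0664 for Tap2 and -0.0638 for Tapbp. In the difference of the age differences Tap2 was -0.0236 on arrays without Xist signal. Same-numbered replicates did not deviate together consistently, so the replicate block rests on shared numbers and not on a steady pairing. Their correlations were 0.407, -0.148 and 0.178 between the young populations, where listed pairs of other numbers ran from -0.343 to 0.221. They were -0.105, 0.255 and -0.192 in old against young MPP3 and 0.261, -0.0329 and 0.130 in old against young MPP4. Between the old populations they were 0.0485, 0.00773 and -0.0428. With the replicate block, Tap2 was -0.0730 and Tapbp -0.000668 in old against young MPP4, 0.112 and 0.0421 between the young populations, and -0.0643 and -0.0232 in the difference of the age differences, and the number of genes called between the young populations was 0 in place of 25.

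Leaving out 1 array at a time, the differences that changed sign ran from -0.125 to 0.111 for Tap2 and from -0.0528 to 0.128 for Tapbp in old against young MPP3, and from -0.0559 to 0.0131 for Tap1 and from -0.0119 to 0.123 for Nlrc5 in old against young MPP4. They ran from -0.134 to 0.102 for Tap2, from -0.208 to 0.00591 for Tapbp and from -0.0637 to 0.0752 for Erap1 between the young populations, from -0.0308 to 0.128 for Tap2, from -0.0680 to 0.0760 for Tapbp and from -0.122 to 0.208 for Nlrc5 between the old populations, and from -0.0541 to 0.182 for Tap2 in the difference of the age differences. The number of genes called, 0 in old against young MPP3, was 9 with 1 fit of all groups and 1 with the array set as a term or within array set 1. In old against young MPP4, also 0, it was 1 with 1 fit of all groups, 304 with array weights and 0 to 15 with 1 array left out, the highest without young MPP4 replicate 2. Between the young populations it was 48 with a robust variance trend, 1808 with array weights, 51 with normal scores, 59 without dim genes, 271 with the array set as a term, 0 within array set 1, 1492 within array set 2, 0 on arrays without Xist signal and 8 to 108 with 1 array left out, the highest without young MPP3 replicate 1. Between the old populations it was 27 with 1 fit of all groups, 2 with normal scores, 1 without dim genes and 0 to 3 with 1 array left out. In the difference of the age differences it was 2 with a robust variance trend, 574 with array weights and 0 to 10 with 1 array left out. The limits are 3 to 5 arrays a group, a rank scale, probe sets that were not told from background, and young and old arrays that differ in array set and in Xist signal.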
